A study of Mus musculus with 2 samples.

Results

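The heat shock and metallothionein genes followed here across individual periosteal cells of the mouse were 6 stress-induced heat shock genes (Hspa1a, Hspa1b, Dnajb1, Hsp90aa1, Hspb1 and Cryab), 2 constitutive heat shock genes (Hspa8 and Hsp90ab1) and 2 metallothionein genes (Mt1 and Mt2). The genes were chosen by name from known function, with earlier results of these data known. In the cells kept 10 of 10 had at least 1 unique molecule, among 16150 genes that did. Fos, an immediate early transcription factor gene that dissociated cells are known to switch on, served as the reference. One unique molecular identifier (UMI) stands for 1 captured mRNA molecule counted near its 3′ end, so levels are given as UMIs per 10000 UMIs and were not divided by gene length.

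Cells labelled by alpha smooth muscle actin were traced. Mice carrying a tamoxifen-inducible Cre under the αSMA promoter (αSMACreER) and the Ai9 tdTomato reporter received 2 doses of 75 mg/kg tamoxifen, so every well holds a sorted Tomato+ cell of a lineage rather than of 1 cell type. The chase was 2 days (2 d, mice 10.3 weeks old), 6 weeks (43 d, 14.4 weeks old) or 13 weeks (96 d, 20.1 weeks old). Mice of the first 2 time points also carried Col2.3GFP. Those of the 13-week time point carried R26-M2rtTA and TetOP-H2B-GFP in its place and ate a doxycycline diet for 5 weeks, so age, strain and diet cannot be told apart from chase time. All periosteum was digested for 30 min with collagenase and hyaluronidase before sorting.

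Each time point was 1 pool of female mice and has no replicate. No p-value is given, and the 95% intervals below cover counting error only. The 2-day and 13-week cells shared a plate and the 6-week cells had a plate of their own, so plate and time cannot be told apart for the 6-week values. Wells with 200 or more genes were kept, which left 181 of 192, 189 of 216 and 133 of 192 wells at 2 days, 6 weeks and 13 weeks. They held 171209, 156763 and 117824 UMIs, with medians of 795, 672 and 726 UMIs per well. All 216 barcodes of the 6-week wells were also used on the other plate, and 137 of the 189 kept 6-week wells had a barcode that was kept there too. No doublets were removed.

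Wells were grouped by measured genes that are not members. Rgs5, a marker of pericytes and vascular smooth muscle, had 1 or more UMIs in 118 of 503 wells (35, 45 and 38 by time point). Thbs4, Fmod and Tnmd, genes of tendon and fibrous matrix, summed to 3 or more UMIs in 187 wells (70, 68 and 49), called tendon-high here. Both criteria held in 13 wells and neither in 211. The cut-offs were close for many wells, with 34 wells at exactly 1 Rgs5 UMI, 47 wells at a tendon score of 2 and 17 wells at 3. Rgs5 wells were shallower than the others, with a median of 603 against 760 UMIs, and tendon-high wells were deeper, with 787 against 695.5.

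The labels of the cells were checked against marker lists. Genes of fibroblasts and progenitors summed to 183 per 10000 over all wells, with 10 of 10 genes seen. Rgs5 wells were chosen by Rgs5, so it was left out of the perivascular list, whose other 9 genes summed to 39.4 in Rgs5 wells against 11.4 in wells without Rgs5. The Rgs5 wells also carried many molecules of the endothelial list. Its 13 genes summed to 141 per 10000 in Rgs5 wells against 6.94 in wells without Rgs5, and 13 of 13 genes were seen. By time point the whole list summed to 96.9, 133 and 184 per 10000 in Rgs5 wells. The list includes Cd36 and Fabp4, and the paper reports Fabp4, an adipocyte lineage marker, as frequent in its Rgs5 cluster. Their part of these sums is not given, and they are left out where endothelial UMIs are counted below. Immune list UMIs were near 0 in both kinds of wells, at 0.539 and 0.680, with C1qa, Cd3e and Cd79a at 0. The Rgs5 wells are therefore called by their rule and not as a pure pericyte group.

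Heat shock proteins are chaperones that bind unfolded proteins. Hspa8 and Hsp90ab1 are made in nearly all cells, while Hspa1a, Hspa1b and Dnajb1 are switched on within minutes by heat shock factor 1, which binds heat shock elements in their promoters. Metallothioneins are small cysteine-rich proteins that bind zinc and copper, and metal-responsive transcription factor 1 switches on their genes through metal response elements. Genes of these families, like Fos, are known to respond to the handling of tissue.

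The promoter stretches that hold these elements are shown so that the letters each factor is known to bind can be seen in the members that carry them. They come from RefSeq on build GRCm38.p6, within the 250 bases before each gene's start, and 6 of the 10 members had an entry. Hspa8, Hsp90aa1, Hsp90ab1 and Cryab had none. Capitals mark the heat shock element, GAANNTTC or TTCNNGAA, or the core of the metal response element, TGCACNC or TGCGCNC on either strand. The stretch of Hspa1a lies at chr17:34972243-34972270 and that of Hspa1b at chr17:34959325-34959352, both on the minus strand. The others are on the plus strand, Hspb1 at chr5:135887792-135887839, Mt2 at chr8:94172385-94172584 and Mt1 at chr8:94179056-94179082.
Hspa1a: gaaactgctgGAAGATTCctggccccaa
Hspa1b: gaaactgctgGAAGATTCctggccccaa
Hspb1: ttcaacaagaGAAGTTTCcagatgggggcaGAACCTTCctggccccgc
Mt2: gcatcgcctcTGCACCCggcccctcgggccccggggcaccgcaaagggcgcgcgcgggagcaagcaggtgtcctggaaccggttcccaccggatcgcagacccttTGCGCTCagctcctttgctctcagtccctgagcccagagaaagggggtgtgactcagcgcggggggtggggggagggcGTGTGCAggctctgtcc
Mt1: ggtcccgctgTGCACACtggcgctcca

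Hspa1a and Hspa1b each held 1 heat shock element, 104 bases before the start, and Hspb1 held 2, at 117 and 97 bases. Across 32851 promoters of the same length 12.8% held 1 or more and 1.46% held 2 or more. Mt2 held 3 metal response cores, at 223, 128 and 50 bases, a number reached by 1.26% of promoters. Mt1 held 1 at 23 bases, and 21.4% of promoters held at least 1. None of the windows of the 6 members held both kinds of match, and those of Dnajb1 and Fos held neither. Some starts in this table differ from those of GENCODE. That of Mt2 lies before its GENCODE start. The Mt1 window ends at chr8:94179088, past the GENCODE start of the gene at chr8:94179082. A second Dnajb1 window, chr8:83608298-83608547, lies inside its GENCODE gene (chr8:83608193-83612653). The counts of matches, with 1 for Mt1 beside 3 for Mt2, therefore depend on the start used. A match describes letters in this window only and shows no binding.

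Hspa1a and Hspa1b are near copies that lie 9951 bases apart on chromosome 17 (chr17:34969190-34972156 and chr17:34956436-34959238, GRCm38). Their promoter windows were 98.8% identical, with 247 of 250 bases shared. Their transcripts were 84.3% identical in all but 50.1% over the last 300 bases, the end that is counted, and how reads matching both genes were assigned is not given in the sources used here, so the split between them is uncertain. Mt2 and Mt1 lie 5513 bases apart on chromosome 8 (chr8:94172664-94173568 and chr8:94179082-94180327). Their promoter windows were 45.7% identical over the alignment, and their transcripts 65.9% identical over the last 300 bases. Cryab (chr9:50751325-50756636) overlaps Hspb2 on the other strand, Hspa1a overlaps Gm20481 and Mt2 overlaps Gm45774 in the same way. Whether counting used strand is not given in the sources used here.

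The constitutive genes were the most widely seen members. Hspa8, the constitutive cytosolic HSP70, had a UMI in 231 of 503 wells and Hsp90ab1, the constitutive HSP90, in 200. The metallothioneins came next, with Mt1 in 157 wells and Mt2 in 112. Cryab, a small heat shock protein abundant in muscle, was seen in 111 wells, Hsp90aa1, the inducible HSP90, in 74 and Hspb1, the small heat shock protein HSP27, in 52. Dnajb1, an HSP40 co-chaperone of HSP70, was seen in 37 wells, and the inducible HSP70 genes Hspa1a and Hspa1b in 21 and 18. Fos was seen in 212. After each well was thinned to 300 UMIs, which left 483 wells, Hspa8 was seen in 23.4%, Mt1 in 18.8%, Hsp90ab1 in 15.9%, Mt2 in 13.0% and Cryab in 11.4%. Hsp90aa1 was then seen in 5.8%, Hspb1 in 5.0%, Dnajb1 in 2.7%, Hspa1a in 1.7% and Hspa1b in 0.8%, against 25.9% for Fos.

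**Figure D1:**
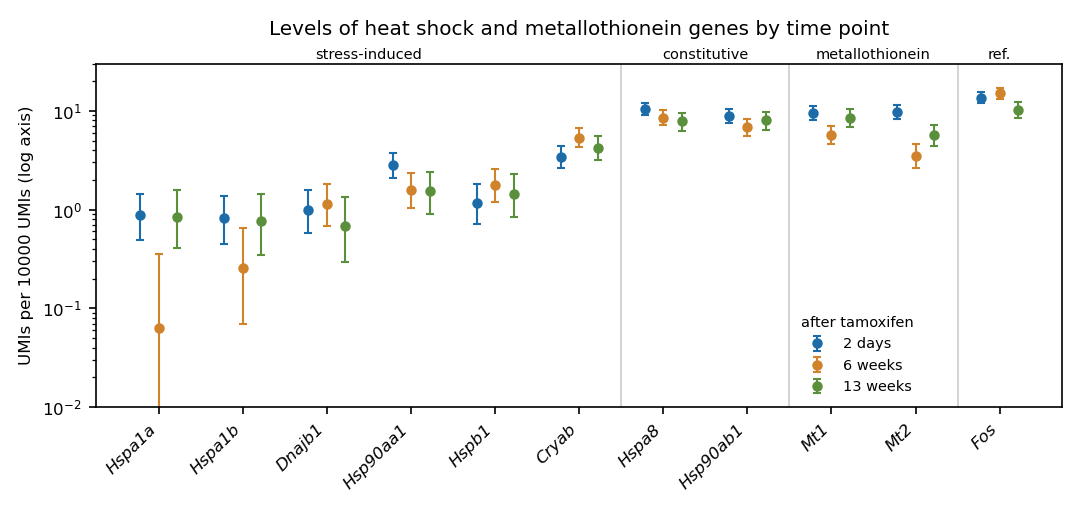
Level of each member and of Fos in UMIs per 10000 UMIs (log axis) at 2 days, 6 weeks and 13 weeks, with exact 95% Poisson intervals that cover counting error only. Hspa8, Hsp90ab1, Mt1 and Mt2 sit above the inducible HSP70 genes at each time point, and Hspa1a at 6 weeks rests on 1 UMI with an interval that runs below the axis.

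The level of the stress-induced heat shock group was close to equal at the 3 time points over all wells, but not without the muscle-rich wells. The 2-day wells held 173 UMIs of the group, or 10.1 per 10000 (8.65 to 11.7). The 6-week wells held 160, or 10.2 (8.69 to 11.9), and the 13-week wells 112, or 9.51 (7.83 to 11.4). The 3 intervals overlap. On the log2 scale the 13-week to 2-day ratio was -0.09 (-0.44 to 0.26) and the 6-week to 2-day ratio 0.01 (-0.30 to 0.33). These sums hold Cryab from muscle-rich wells, described below, and without those wells the ratios were -0.47 (-0.88 to -0.08) and -0.45 (-0.82 to -0.09), both lower than at 2 days.

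The constitutive group was higher at 2 days. It stood at 19.3 per 10000 (17.3 to 21.5) from 330 UMIs, against 15.4 (13.5 to 17.4) in the 6-week wells and 15.8 (13.6 to 18.2) in the 13-week wells. The log2 ratio was -0.33 (-0.57 to -0.08) for 6 weeks to 2 days and -0.29 (-0.56 to -0.02) for 13 weeks to 2 days, the latter within the shared plate. Counted in reads instead of UMIs the 13-week to 2-day ratio turned to 0.13, so its direction depends on the count used. Hspa8 gave 179, 134 and 92 UMIs, or 10.5, 8.55 and 7.81 per 10000. Hsp90ab1 gave 151, 107 and 94 UMIs, or 8.82, 6.83 and 7.98 per 10000. The levels of the 2 genes had overlapping intervals at each time point.

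The metallothioneins differed most between time points. The 2-day sum was 19.3 per 10000 (17.3 to 21.5), the 6-week sum 9.25 (7.81 to 10.9) and the 13-week sum 14.2 (12.1 to 16.5), and the 3 intervals do not overlap. Much of this difference lay in the wells with a UMI of Pax7 or Cdh15, markers of muscle satellite cells, described below. Those 25, 15 and 11 wells held 166, 20 and 47 of the UMIs. Without them, an alternative added after the values were seen, the sums were 11.09 per 10000 (9.46 to 12.9), 8.75 (7.28 to 10.4) and 10.88 (9.02 to 13.02), and the intervals overlap. The log2 ratio to 2 days was then -0.34 at 6 weeks and -0.027 at 13 weeks. Counted over every well Mt2 gave 167, 55 and 67 UMIs, or 9.75, 3.51 and 5.69 per 10000. Mt1 gave 163, 90 and 100 UMIs, or 9.52, 5.74 and 8.49 per 10000. Over all wells Mt2 was lower at both later time points, with log2 ratios to 2 days of -1.48 (-1.94 to -1.03) at 6 weeks and -0.78 (-1.21 to -0.36) at 13 weeks. Without the Pax7 or Cdh15 wells these were -0.68 (-1.24 to -0.14) and -0.40 (-0.97 to 0.15), so the 13-week interval then included 0. For Mt1 the ratio was -0.73 (-1.12 to -0.35) at 6 weeks and -0.17 at 13 weeks, and -0.092 and 0.25 without those wells, both with intervals that include 0. The number of Mt1 UMIs per Mt2 UMI was 0.98, 1.64 and 1.49.

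Fos took a different order. Its 232, 235 and 120 UMIs made 13.55, 14.99 and 10.18 per 10000. Its log2 ratio was 0.15 for 6 weeks to 2 days and -0.41 (-0.74 to -0.09) for 13 weeks to 2 days. Over all wells the metallothioneins and Fos were both lower at 13 weeks than at 2 days, and at 6 weeks only the metallothionein interval lay below 0.

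The inducible HSP70 system was scarce. Hspa1a gave 15, 1 and 10 UMIs, Hspa1b 14, 4 and 9, and Dnajb1 17, 18 and 8. Hspa1a was therefore almost unseen at 6 weeks, with 1 UMI in 189 wells, whereas Dnajb1 had 18, or 1.15 per 10000 (0.681 to 1.81). The 3 Dnajb1 intervals overlap, and the order of its levels differed in read counts. The log2 ratio of 6 weeks to 2 days was -3.78 (-9.18 to -1.08) for Hspa1a and -1.68 (-3.74 to -0.01) for Hspa1b. The scarce genes were spread over few wells. At 13 weeks 5 of the 9 Hspa1b UMIs came from 1 well.

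The other stress-induced members went different ways. Hsp90aa1 gave 48, 25 and 18 UMIs, or 2.80, 1.59 and 1.53 per 10000, and its log2 ratio to 2 days was -0.81 at 6 weeks and -0.88 (-1.75 to -0.07) at 13 weeks. Counted in reads the 6-week ratio was -0.07 and the 13-week ratio -0.87, so the 6-week difference depends on the count used. Hspb1 gave 20, 28 and 17 UMIs, or 1.17, 1.79 and 1.44 per 10000, with overlapping intervals. Cryab gave 59, 84 and 50 UMIs, or 3.45, 5.36 and 4.24 per 10000, and its 6-week to 2-day log2 ratio was 0.64 (0.14 to 1.14), which turned to -0.47 (-1.11 to 0.16) without the muscle-rich wells. Per constitutive UMI the 2-day wells held 0.52 stress-induced UMIs (0.43 to 0.63), the 6-week wells 0.66 (0.54 to 0.81) and the 13-week wells 0.60 (0.47 to 0.77). The 3 intervals overlap. Without the muscle-rich wells the 6-week and 13-week values fell to 0.454 and 0.470.

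Few members were past 2-fold between time points. For 13 weeks to 2 days 10.1% of the 772 genes with 50 or more UMIs were past 2-fold in either direction, and 0 of the 6 members with that many were. For 6 weeks to 2 days it was 7% of 957 genes and 1 of 6 members, Mt2, which was lower. The median log2 ratio of the members was -0.29 and -0.55, beside -0.12 and -0.03 for all genes tested.

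In Rgs5 wells the members split by gene. Mt2 was lower than in the other wells. Hspb1 was higher, but not when wells with an endothelial UMI were left out. Hspa1a and Hspa1b were higher on few UMIs, and without their top wells neither interval left out 0. The remaining members had intervals that include 0. Ratios here are combined over the 3 time points (Mantel-Haenszel), so that each compares wells of the same pool. Among 1396 genes with 50 or more UMIs 22.8% were past 2-fold, and among 7 such members 2 were, Hspb1 and Mt2. The median log2 ratio was -0.36 for the members and -0.11 for all genes.

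Mt2 showed the clearest difference. Rgs5 wells held 1, 3 and 6 Mt2 UMIs at 2 days, 6 weeks and 13 weeks, and the other wells 166, 52 and 61. That is 0.410, 0.818 and 1.89 per 10000 against 11.3, 4.33 and 7.09, and Rgs5 wells were lower at each time point. The combined log2 ratio was -2.79 (-3.73 to -1.85), and over 18 other ways of choosing or counting the wells it ran from -4.14 to -2.17. In the 105 wells that met the Rgs5 criterion alone there were 0, 2 and 3 Mt2 UMIs, and 0 UMIs at 2 days allows up to 1.39 per 10000.

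Mt1, its neighbour, differed less. It gave 28, 16 and 15 UMIs in Rgs5 wells and 135, 74 and 85 in the others, and the combined log2 ratio was -0.33 (-0.73 to 0.07). By time point the ratio was 0.32, -0.50 and -1.07. It had no steady direction over the alternatives, at -1.09 with 2 or more Rgs5 UMIs, -0.82 without the top wells, 0.41 without wells with an endothelial UMI and 0.49 in read counts. The comparison of Mt1 with Mt2 was added after the values were seen. In Rgs5 wells 59 Mt1 UMIs stood beside 10 of Mt2, or 5.9 to 1 (2.99 to 12.9), whereas elsewhere 294 stood beside 279, or 1.05 to 1 (0.89 to 1.25), and these intervals do not overlap. The excess of Mt1 was 28 to 1, 16 to 3 and 15 to 6 by time point, and 14 to 1, 15 to 3 and 15 to 6 without wells with a Pax7 or Cdh15 UMI. The intervals of the ratio in Rgs5 wells and elsewhere did not overlap at 2 days. They overlapped at 6 weeks (1.53 to 28.6 against 0.98 to 2.07) and at 13 weeks (0.92 to 7.86 against 0.99 to 1.97).

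The same excess can be read from counts of wells. Of the 118 Rgs5 wells 26 held Mt1 alone, 4 held Mt2 alone and 4 held both. Of the 385 other wells 73 held Mt1 alone, 50 held Mt2 alone and 54 held both. The Rgs5 well with the most Mt1 had 13 Mt1 UMIs at 2 days, only 1 Rgs5 UMI, 7 UMIs of the skeletal muscle list and 3 of the satellite list, 1 of them Pax7 or Cdh15. Without the top well of each set the log2 of Mt1 over Mt2 was 2.20 in Rgs5 wells and 0.15 elsewhere, and it was 2.14 and 0.30 without wells with a Pax7 or Cdh15 UMI.

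**Figure D2:**
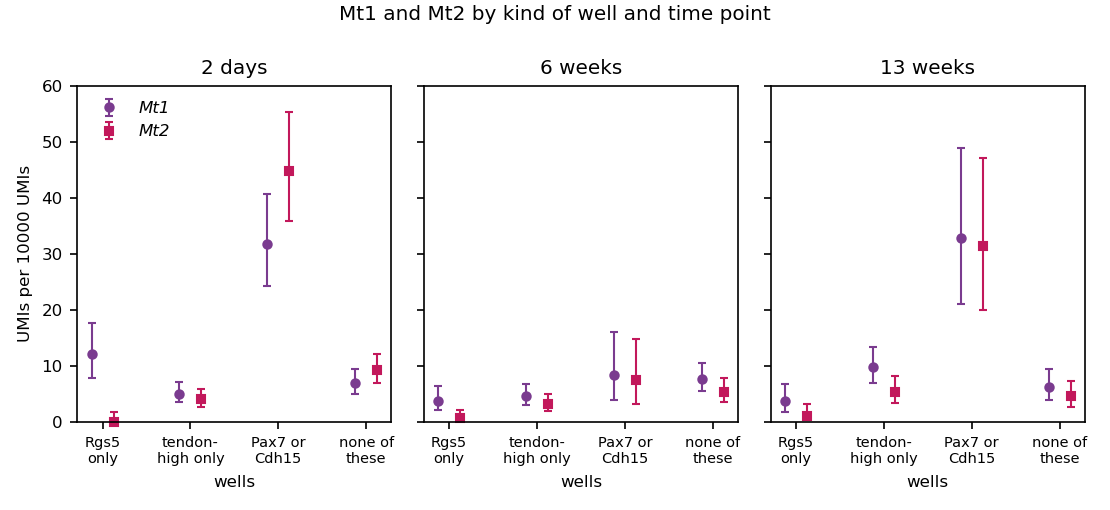
Mt1 and Mt2 level in UMIs per 10000 for 4 sets of wells, with exact 95% Poisson intervals that cover counting error only. The sets are Rgs5 wells that are not tendon-high, tendon-high wells without Rgs5, and wells of neither class with or without a Pax7 or Cdh15 UMI, the last 2 sets leaving out wells with 3 or more muscle list UMIs. Mt2 is near the bottom in the Rgs5 wells at each time point, and both genes are highest in Pax7 or Cdh15 wells at 2 days and 13 weeks.

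Hspb1 went the other way. Rgs5 wells held 11, 11 and 9 Hspb1 UMIs, or 4.51, 3.0005 and 2.83 per 10000, and the other wells 9, 17 and 8, or 0.613, 1.42 and 0.930. Rgs5 wells were higher at each time point. The combined log2 ratio was 1.72 (1.03 to 2.41), and 0.98 after thinning to 300 UMIs.

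Among Rgs5 wells most Hspb1 molecules lay in those that also held an endothelial UMI, a split made after the values were seen. An endothelial UMI here is one of the list other than Fabp4 and Cd36. The 60 Rgs5 wells with one held 29 Hspb1 UMIs, or 5.12 per 10000 (3.43 to 7.35). The 58 Rgs5 wells without one held 2, or 0.55 per 10000 (0.067 to 2.00), and these intervals do not overlap. Wells with an endothelial UMI but no Rgs5 held 6 in 45 wells, or 1.23 per 10000 (0.451 to 2.68), and wells with neither held 28 in 340, or 0.92 (0.612 to 1.33). With all wells that had an endothelial UMI left out, the Rgs5 log2 ratio of Hspb1 turned to -0.61 (-2.66 to 1.45).

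Mt1 was spread over the same wells in the reverse way. It stood at 2.82 per 10000 in Rgs5 wells with an endothelial UMI and at 11.9 in Rgs5 wells without one. Mt2 was low in both, at 0.53 and 1.93 per 10000, compared with 2.66 in endothelial wells without Rgs5 and 8.75 in wells with neither. Fos stood at 16.4 and 21.8 in the Rgs5 wells and at 9.84 and 12.1 in the others. Mt1 was thus higher where Hspb1 was lower among the Rgs5 wells, and Mt2 was low in both kinds.

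**Figure D3:**
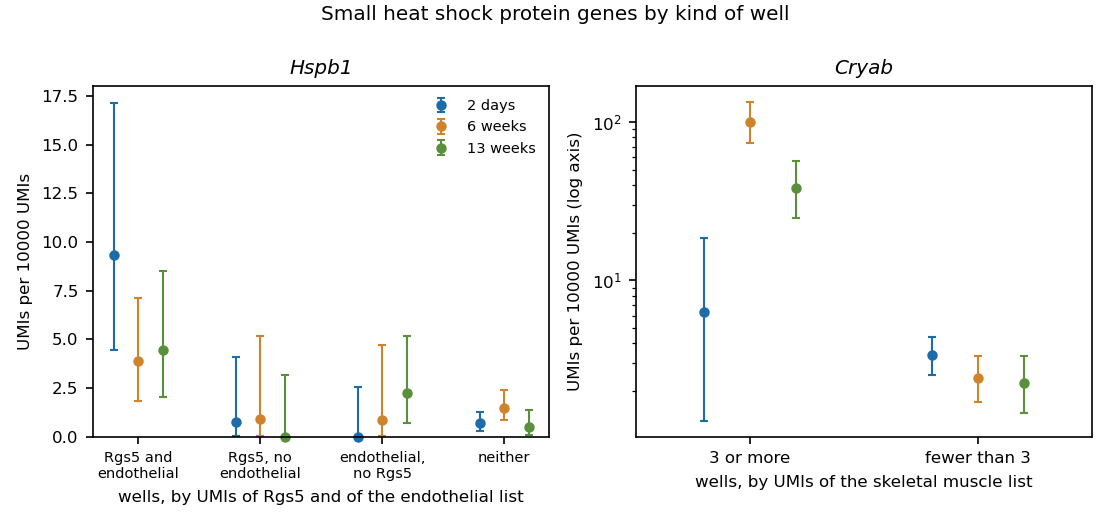
Hspb1 level in wells split by Rgs5 and endothelial UMIs, and Cryab level in wells split by skeletal muscle list UMIs (log axis), at each time point. Levels are UMIs per 10000 with exact 95% Poisson intervals that cover counting error only. Over all time points together, values that are not drawn, Hspb1 stands at 5.12 per 10000 where Rgs5 and endothelial UMIs meet. Cryab then stands at 47.1 in the 22 muscle-rich wells.

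The inducible HSP70 genes were higher in Rgs5 wells on few molecules. Hspa1a gave 5, 0 and 6 UMIs in Rgs5 wells and 10, 1 and 4 elsewhere, with a combined log2 ratio of 1.66 (0.50 to 2.82), which fell to 0.73 (-0.79 to 2.25) without the top well of each time point. Hspa1b gave 2, 2 and 6 against 12, 2 and 3, with a ratio of 1.35 (0.14 to 2.57), which turned to -0.12 (-1.90 to 1.66) without those wells. Dnajb1 gave 1, 6 and 1 against 16, 12 and 7, with a ratio of -0.17. The sum of the 3 genes had a ratio of 0.82 (0.17 to 1.47), which became -0.40 without the well with the most UMIs at each time point, so it rests on those wells.

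The stress-induced and constitutive sums in Rgs5 wells had ratios to the other wells with intervals that include 0. The stress-induced sum had a log2 ratio of 0.24 (-0.07 to 0.56). It was 0.58 (0.24 to 0.92) without the muscle-rich wells and -0.18 when the other wells were also not tendon-high, so its direction depends on the wells compared. The constitutive sum had a ratio of -0.23 (-0.50 to 0.04), with Hspa8 at -0.13 and Hsp90ab1 at -0.36. The metallothionein sum, which Mt2 enters, was lower at -1.03 (-1.39 to -0.67), but at -0.36 (-0.78 to 0.06) without wells with an endothelial UMI, where its interval included 0. Per constitutive UMI, Rgs5 wells held 0.78 stress-induced UMIs (0.60 to 1.01) and wells without Rgs5 0.55 (0.48 to 0.62). Fos was higher in Rgs5 wells, with UMIs of 43, 81 and 48 against 189, 154 and 72 and a ratio of 0.70 (0.44 to 0.96), and 0.33 when the other wells were also not tendon-high.

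**Figure D4:**
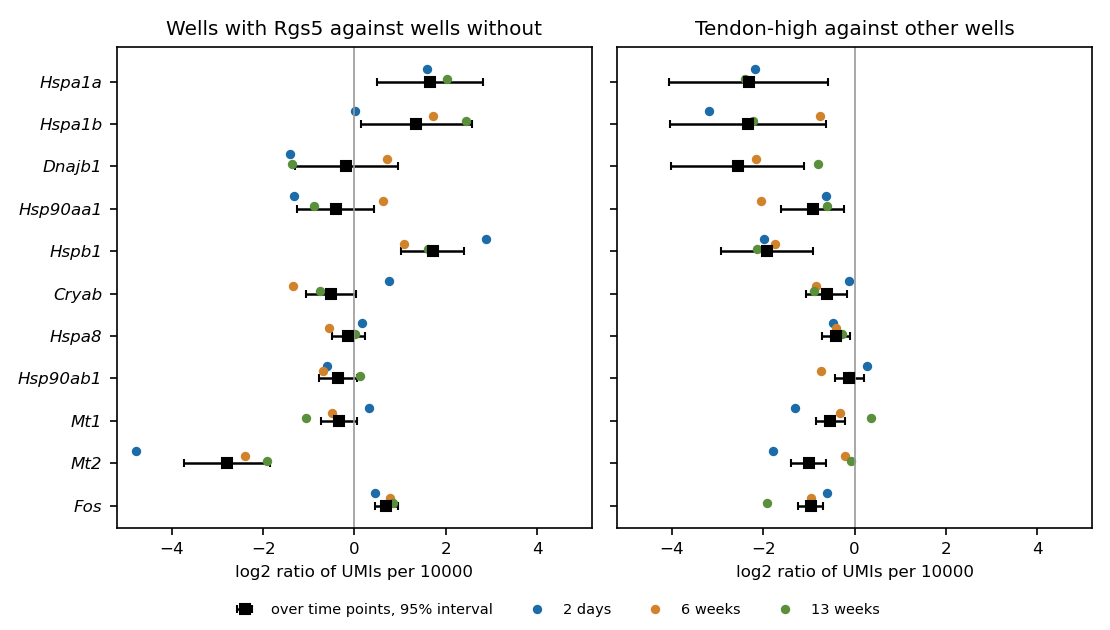
Log2 ratio of each member and of Fos in Rgs5 wells to other wells and in tendon-high wells to other wells. Ratios are combined over time points (black squares, 95% intervals for counting error only) and given at each time point (coloured dots, points with 0 UMIs not drawn). Hspb1 and Mt2 lie far apart in the Rgs5 comparison, and the stress-induced members lie below 0 in the tendon-high comparison, where Cryab is at 0.35 without the muscle-rich wells.

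In tendon-high wells the stress-induced genes were lower, and the constitutive genes were lower by less. The stress-induced sum was 6.24, 5.33 and 5.29 per 10000 in tendon-high wells at the 3 time points and 12.81, 12.94 and 11.97 in the others, so it was lower each time. The combined log2 ratio was -1.15 (-1.48 to -0.83), with -1.04, -1.28 and -1.18 by time point, and it ran from -1.27 to -0.81 over 17 alternatives. The constitutive sum had a ratio of -0.27 (-0.48 to -0.05), with Hspa8 at -0.40 (-0.70 to -0.10) and Hsp90ab1 at -0.11 (-0.43 to 0.20), or -0.70 for Hsp90ab1 after thinning to 300 UMIs. Per constitutive UMI there were 0.37 stress-induced UMIs (0.29 to 0.47) in tendon-high wells and 0.70 (0.61 to 0.80) in the others, and these intervals do not overlap.

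The difference was largest for the inducible HSP70 system and Hspb1. Hspa1a, Hspa1b and Dnajb1 together gave 3, 3 and 4 UMIs in tendon-high wells and 43, 20 and 23 in the others, a log2 ratio of -2.43 (-3.36 to -1.49). Dnajb1 alone gave 0, 2 and 2 against 17, 16 and 6. Hspb1 gave 3, 4 and 2 against 17, 24 and 15, a ratio of -1.92 (-2.94 to -0.91). Each of these sums was lower in tendon-high wells at each time point. Hsp90aa1 had a ratio of -0.92 (-1.61 to -0.23). For Cryab it was -0.61 (-1.07 to -0.16), and 0.35 (-0.17 to 0.87) without the muscle-rich wells.

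Fos was lower in tendon-high wells as well, with 73, 53 and 16 UMIs against 159, 182 and 104. Its log2 ratio was -0.96 (-1.23 to -0.69) combined and -0.61, -0.95 and -1.93 by time point. Among 1396 genes 19.9% were past 2-fold, and of 7 members 2 were, Hspb1 and Mt2, both lower. The members' median log2 ratio was -0.61 beside -0.18 for all genes. Tendon-high wells also held fewer UMIs of the endothelial list (2.58 against 54.9 per 10000, 9 of 13 genes seen), of the skeletal muscle list (3.64 against 35.3, 8 of 12 genes seen) and of the red blood cell list (1.41 against 43.7, 4 of 5 genes seen). Myh1, Myh2, Myh4 and Actn3 of muscle and Cldn5, Tie1, Tek and Esam of endothelium were at 0. The stress-induced ratio was -0.81 without the muscle-rich wells, -1.12 without wells with an immune or red blood UMI and -0.95 without wells with an endothelial UMI, the last added after the values were seen. That of Hspb1 was then -0.94 (-2.06 to 0.19).

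Of the 3 time points, the metallothioneins had an interval below 0 in tendon-high wells at 2 days alone. The log2 ratio of their sum was -1.54 (-1.96 to -1.14) among 2-day wells, -0.27 (-0.81 to 0.25) among 6-week wells and 0.20 (-0.27 to 0.66) among 13-week wells. In tendon-high wells the level was 9.08, 8.17 and 15.4 per 10000. In the other wells it was 26.4, 9.86 and 13.5, the first from 266 UMIs. Mt2 gave 28, 18 and 24 UMIs in tendon-high wells and 139, 37 and 43 in the others, and Mt1 36, 28 and 43 against 127, 62 and 57. The 2-day excess thus lay outside the tendon-high wells. Without wells with a Pax7 or Cdh15 UMI the 2-day ratio shrank to -0.63 (-1.12 to -0.16), from 60 UMIs in tendon-high wells and 104 in the others. It was -0.23 (-0.80 to 0.31) at 6 weeks. At 13 weeks it was 0.96 (0.42 to 1.51), from 67 and 53 UMIs, so tendon-high wells were then higher. The difference between time points was not tested. The combined ratio of -0.035 for the sum, 0.075 for Mt1 and -0.19 for Mt2 averages over these opposite directions.

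Much of the 2-day excess lay in the 24 of these 111 wells with Pax7 or Cdh15, the satellite cell markers, which held 162 of those 266 UMIs. In tendon-high wells Cdh15, Myf5 and Myod1 were at 0. A comparison of wells with and without these markers was added after the values were seen and uses wells of neither class with fewer than 3 muscle list UMIs. The 21, 11 and 10 such wells with a marker held 76.5 (64.6 to 89.9), 15.9 (9.27 to 25.5) and 64.3 (47.2 to 85.5) metallothionein UMIs per 10000. The 56, 59 and 35 wells without either marker held 16.1, 13.1 and 10.7. The level was thus several times higher with the markers at 2 days and 13 weeks, and the intervals overlapped at 6 weeks. The combined log2 ratio was 1.98 (1.70 to 2.27), with 2.24, 0.29 and 2.59 by time point, and 1.21 (0.67 to 1.74) after thinning to 300 UMIs.

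Both metallothioneins took part. Mt2 gave 86, 8 and 23 UMIs in Pax7 or Cdh15 wells and 53, 27 and 16 without, a log2 ratio of 2.11 (1.72 to 2.51). Mt1 gave 61, 9 and 24 against 39, 39 and 22, a ratio of 1.84 (1.42 to 2.26). The most metallothionein UMIs in a well were 26, 10 and 19 by time point. At 2 days and 13 weeks 1 well held that number and had Pax7 or Cdh15 UMIs, 2 and 3 of them. At 6 weeks 2 wells were tied, 1 with the markers and 1 without, and the former held 10 of the 17 metallothionein UMIs of the 6-week wells with the markers. In wells of neither class that lacked Pax7 and Cdh15 Mt2 still stood at 6.71 per 10000 (5.43 to 8.19), above the 0.599 (0.194 to 1.40) of wells with Rgs5 alone.

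For the heat shock genes and Fos the ratios were smaller. Fos had a log2 ratio of 1.19 (0.84 to 1.53) between wells with and without Pax7 or Cdh15. The constitutive group had a ratio of 0.66 (0.33 to 0.99) and the stress-induced group 0.38 (-0.12 to 0.88). The wells with the markers were deeper, with a median of 864.5 against 741 UMIs, and the part of depth beyond the thinned values was not tested.

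Cryab, the small heat shock protein that muscle makes in large amounts, followed the skeletal muscle list. The 22 wells with 3 or more UMIs of that list held 75 of the 193 Cryab UMIs, or 47.1 per 10000 (37.1 to 59.1), and the other 481 wells 118, or 2.74 (2.27 to 3.29). By time point the muscle-rich wells numbered 4, 10 and 8 and held 3, 47 and 25 Cryab UMIs. A single well held 23 of 84 Cryab UMIs at 6 weeks, beside 90 muscle list UMIs, and another 16 of 50 at 13 weeks, beside 129. Outside these wells Cryab stood at 3.36, 2.43 and 2.25 per 10000. Hspb1 had 6 UMIs in muscle-rich wells, 3.77 per 10000 (1.38 to 8.21).

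Wells with Fos were compared with wells without it, again after the values were seen. Metallothionein UMIs were higher beside Fos, at 24.6, 10.9 and 20.8 per 10000 against 14.80, 7.48 and 10.97, a log2 ratio of 0.74 (0.51 to 0.96). Pax7 or Cdh15 UMIs were also more frequent there, in 35 of 212 wells with Fos and 16 of 291 without. Without those wells the metallothionein ratio was 0.41 (0.12 to 0.70), and at 13 weeks the level was 10.41 per 10000 beside Fos and 11.08 without Fos. The stress-induced ratio was 0.40 (0.12 to 0.67), positive at 2 days and 6 weeks (0.64 and 0.65) and -0.48 at 13 weeks. At 6 weeks 1 muscle-rich well with Fos held 24 of the 160 stress-induced UMIs. At 13 weeks 1 muscle-rich well without Fos held 17 of 112. The stress-induced ratios without these wells are not given. The constitutive ratio was 0.15 (-0.06 to 0.35). Of 16 other immediate early genes measured well enough, 14 were past 2-fold higher beside Fos, with a median of 2.08. Over all 1399 genes with 50 or more UMIs 6.79% were past 2-fold in either direction, and 0 of 7 members were. The median was 0.62 for the members and -0.03 for all genes.

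Other genes of these pathways were looked at from lists chosen by function. Of the immediate early genes, Fos among them, 8 of 17 were lower past 2-fold in tendon-high wells and 0 higher. Over all genes tested 19.9% were past 2-fold there in either direction. The median log2 ratio of the list was -0.96, and Atf3, a stress-induced transcription factor, was at -2.87. In Rgs5 wells 0 of 17 were past 2-fold, beside 22.8% of all genes tested, with a median of 0.50. For 6 weeks to 2 days 1 of 14 was past 2-fold, Atf3 at -2.04, beside 7% of all genes tested. The median was 0.14 and Junb was highest at 0.79. For 13 weeks to 2 days 2 of 13 were past 2-fold, Atf3 at -2.63 and Fosb at -1.03, beside 10.1% of all genes tested. The median was -0.41 and Klf6 was highest at 0.62. The immediate early list thus took the same side as the stress-induced members in tendon-high wells.

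For the remaining lists the shares of all genes tested past 2-fold were 22.8% in Rgs5 wells and 19.9% in tendon-high wells. These lists held few genes with enough UMIs, so their counts are not read as differing from those shares. Of 6 other cytosolic chaperones and co-chaperones with enough UMIs 0 were past 2-fold in Rgs5 wells and 1 in tendon-high wells, St13, an HSP70-binding co-chaperone, which was higher with a log2 ratio of 1.02. Of 9 organelle chaperones and genes of the unfolded protein response, Atf4, a transcription factor of that response, was higher in Rgs5 wells (1.06) and Calr, a chaperone of the endoplasmic reticulum, lower (-1.54). In tendon-high wells Atf4 was lower (-1.01) and the other 8 were within 2-fold. Of 4 metal and oxidative response genes, among them the ferritin genes Fth1 and Ftl1, 0 were past 2-fold in any comparison. Of 3 glucocorticoid-responsive genes Tsc22d3 was higher (1.38) and Errfi1 lower (-3.53) in tendon-high wells, and 0 were past 2-fold in Rgs5 wells.

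Between time points 7% of all genes tested were past 2-fold for 6 weeks to 2 days. For 13 weeks to 2 days it was 10.1%. The same lists again held few genes with enough UMIs, and their counts were not tested against these shares. For 6 weeks to 2 days Cdkn1a, a cell cycle inhibitor, was higher (1.43) and Tsc22d3 lower (-1.38), of 3 glucocorticoid-responsive genes. Canx, a chaperone of the endoplasmic reticulum, was higher (1.01), of 7 organelle genes. For 13 weeks to 2 days Errfi1 was lower (-1.85), of 2 glucocorticoid-responsive genes, and 0 of 6 organelle genes were past 2-fold. Of the other cytosolic chaperones 2 had enough UMIs at 6 weeks and 0 at 13 weeks, and 0 were past 2-fold.

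Few genes followed the members from well to well. Over 503 wells and 1087 genes the stress-induced sum was most like Acta1, skeletal muscle actin, with Pearson's r of 0.27 on log levels, and then Tpm2 with 0.18. By time point r was 0.20, 0.34 and 0.26 for Acta1 and 0.013, 0.31 and 0.18 for Tpm2. The metallothionein sum was most like Egr1, an immediate early gene, with 0.30, and then Btg2 with 0.24. By time point r was 0.37, 0.31 and 0.12 for Egr1 and 0.44, 0.13 and 0.11 for Btg2. The r of the metallothionein sum with Fos was 0.16. All points share the same wells and depth, the coefficients are weak, and they are given as a description.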

How the data were processed

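Tomato+ periosteal cells on 2 plates were sequenced 1 cell per well. The authors ran bcl2fastq 2.18.0.12, Drop-seq tools, Picard (2.9.3 per the labels, another version in the study's methods) and STAR 2.5.4a on mouse build GRCm38 and deposited counts of UMIs per gene and well, and read counts in a second table. From the deposited counts, wells were assigned to time points by the labels, wells with under 200 genes and 168 unused wells were left out, and UMIs were summed over wells. Sums have exact Poisson intervals, shares exact Clopper-Pearson intervals and ratios of 2 sums exact binomial intervals. Ratios between kinds of wells were combined over time points (Mantel-Haenszel). Depth was 117824 to 171209 UMIs per time point, and 3 UMIs, the limit that 0 allows, were 0.175 to 0.255 per 10000. Genes were called past 2-fold from 50 UMIs.

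Members and lists were chosen with earlier results of these data known. Members were named in full, and other genes as the 2 highest and 2 lowest of each list. Scripts were tested on simulated data. Alternatives covered filters, read counts, denominators, cut-offs, top wells, marker-bearing wells and thinning. Python 3.11.15, numpy 2.4.6, pandas 2.3.3, scipy 1.17.1 and Biopython 1.88 were used, with GENCODE annotation for positions.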

Additional observations from a re-analysis of the deposited data

Results flagged for a closer look

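The level of Cryab in wells with a Fos UMI relative to wells without one took opposite signs at 2 time points. The log2 ratio was 0.72 at 6 weeks, from 54 UMIs in wells with Fos and 30 without, and -1.35 at 13 weeks, from 8 and 42 UMIs. It is listed because both counting intervals leave out 0 on opposite sides. With 1 pool per time point the difference between time points was not tested. Both values lean on 1 well each. The well with the most Cryab held 23 UMIs and a Fos UMI at 6 weeks, and 16 UMIs and no Fos UMI at 13 weeks, and both were rich in skeletal muscle genes. Without these wells the ratios were -0.06 (-0.83 to 0.71) and -0.69 (-2.04 to 0.50). Without all muscle-rich wells they were 0.41 and -0.14, with intervals that include 0.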

How the results depend on the processing

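Of 1466 values recomputed under an alternative, 1304 moved by less than the counting error, 154 moved by more and 8 called values changed sign. Read counts in place of UMIs turned the 13-week to 2-day ratio of the constitutive group to 0.13 and the 6-week to 2-day ratio of Hsp90ab1 to 0.064 (all ratios in log2). They gave -0.077 for the constitutive group at 6 weeks to 2 days, levels of 16.98 and 18.59 per 10000 for it at 2 days and 13 weeks, 12.01 for the metallothioneins at 13 weeks and 15.6 for Fos at 2 days. In Rgs5 wells they gave -0.34 for the metallothioneins, 1.135 for Fos and 4.25 for Mt1 over Mt2, and in tendon-high wells -1.49 for Fos. The mean over wells gave 12.04 for the stress-induced group and 0.867 for its ratio to the constitutive group at 6 weeks, 23.1 for the metallothioneins at 2 days, and 17.4 and 13.6 for Fos at 2 days and 13 weeks. A total without mitochondrial, Gm26924 and hemoglobin genes gave 21.96 and 18.91 for the constitutive group, 21.96 and 16.98 for the metallothioneins and 15.4 and 12.2 for Fos at 2 days and 13 weeks. Leaving out the deepest 5% of wells gave 21.8 for the metallothioneins at 2 days.

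Without the muscle-rich wells Cryab turned to -0.47 at 6 weeks to 2 days and to 0.35 in tendon-high wells. The stress-induced level was then 7.10 at 6 weeks and 7.01 at 13 weeks, its ratio to the constitutive group 0.454 and 0.470, its ratios to 2 days -0.47 at 13 weeks and -0.45 at 6 weeks, and its ratio 0.58 in Rgs5 wells and -0.81 in tendon-high wells. Without the top well of each time point the Rgs5 ratio of Hspa1a, Hspa1b and Dnajb1 turned to -0.40 and that of Hspa1b to -0.12. Without wells with an endothelial UMI Hspb1 turned to -0.61. The metallothionein ratio of Rgs5 wells was -1.39 without wells over 15% mitochondrial, -1.41 without muscle-rich wells, -1.78 with 2 or more Rgs5 UMIs and -0.36 without wells with an endothelial UMI. Against other wells that were also not tendon-high, the Rgs5 ratio was -0.18 for the stress-induced group and 0.33 for Fos, and with tendon-high wells left out on both sides, an alternative chosen after seeing the data, -0.10, -1.55 and 0.37 for the stress-induced group, the metallothioneins and Fos. Thinning to 300 UMIs gave -0.23 for the stress-induced group. The tendon-high ratio of the metallothioneins was -1.05 against wells also without Rgs5, and -1.13 without wells with an endothelial UMI, added after seeing the data. Also added was leaving out wells with a Pax7 or Cdh15 UMI, which gave metallothionein levels of 11.09 at 2 days and 10.88 at 13 weeks, ratios to 2 days of -0.34 at 6 weeks and -0.027 at 13 weeks, and a tendon-high ratio of -0.035, with Mt1 turned to 0.075 there. It gave 8.25 for Fos at 13 weeks and 0.98 for Fos in Rgs5 wells. In comparisons added after seeing the data, the metallothionein ratio was 1.02 for thinned wells with Fos and 0.41 for wells with Fos when Pax7 or Cdh15 wells were left out, and for Pax7 or Cdh15 wells 2.32 over all wells and 1.21 after thinning, where Fos gave 0.82.

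The causes of these shifts were not tested. No paired analysis was possible because each time point is 1 pool with no replicate. Depth limits the scarce members: Hspa1a, Hspa1b and Dnajb1 rest on 1 to 18 UMIs per time point, and 1 UMI in a median well is 12.6 to 14.9 per 10000.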
